A study of Mus musculus with 8 samples.

Results

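The genes described here are the potassium channel genes of the mouse, taken as every gene with a symbol that starts with Kcn and a probe set of its own on the array. The array carried 92 of them, among 19938 genes with a single symbol. Of the 92, 88 encode channel subunits, 3 are long non-coding RNAs of channel loci (Kcnd3os, Kcnmb4os1 and Kcnmb4os2) and 1, Kcnrg, encodes a regulator of channels. Expression was measured in uteri of young virgin C57BL/6 females on day 3 at 22 h, with the night of mating as day 0. The pregnant group held 4 uteri from matings with stud males, with no blue dye reaction and with healthy blastocysts flushed from the horns, so that embryos were present but not yet attached. The pseudopregnant group held 4 uteri from matings with vasectomised males, which carry no embryos. Whole uterus was used, so muscle, stroma, epithelium, vessels and immune cells are mixed in each sample, and fewer cells of a type cannot be told apart from less RNA per cell. The kind of male mated differed along with the presence of embryos, and these cannot be told apart either.

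Potassium channels let potassium leave the cell and so pull the membrane potential towards negative values. In uterine smooth muscle this opposes calcium entry and contraction, and in epithelia it provides the driving force for chloride and fluid secretion. The pore is built from voltage-gated, calcium-activated, inward rectifier or tandem-pore-domain subunits. Accessory subunits such as those of the Kcne, Kcnab and Kcnip families change how the pore subunits gate or reach the membrane.

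Of the 92 genes, 43 were measured, meaning that their intensity exceeded an array's 40th percentile on at least 4 of the 8 arrays. That is 46.7% of the family, against 65.4% of all genes with a single symbol. Of the measured genes, 1 fell and 0 rose in pregnant uterus (limma, Benjamini-Hochberg adjusted p under 0.05), against a background of 1.82% of 17491 probe sets called in either direction. The gene that fell was Kcne4, and over all probe sets 0.412% were called lower and 1.41% higher. At an unadjusted p under 0.05, 9 of the 43 genes differed, 4 higher and 5 lower. This is 20.9% of the family and lies near the 23.7% of all probe sets with such a p, of which 14.3% were higher and 9.43% lower.

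Markers of other cell types moved between the groups in the same uteri. Of 12 measured markers of macrophages and dendritic cells, 7 rose. Of 6 measured markers of lymphocytes and NK cells, 4 rose (Gzmb, Prf1, Ncr1 and Il2rb). Cd3e (-0.15) and Cd3g (0.042) did not pass, and Cd8a, Cd4, Ms4a1 and Klrb1c lay below the filter. Of 10 epithelial, 10 endothelial and pericyte and 9 stromal markers, 0 passed limma's threshold. At an unadjusted p under 0.05, 2 epithelial markers were lower and 0 higher. Of the endothelial and pericyte markers, 2 were lower (Tie1 and Cdh5) and 2 higher (Rgs5 and Pdgfrb), and 1 stromal marker was higher. Over all probe sets, 9.43% were lower and 14.3% higher. Below 0 were 8 of 10 epithelial, 8 of 10 endothelial and pericyte and 0 of 9 stromal differences, against 49.4% of all probe sets. Mean log2 levels of the macrophage list lay between 6.88 and 7.03 in pregnant and between 6.61 and 6.71 in pseudopregnant uteri. Markers of nerve and glia (2 of 7 on the array), neutrophils and eosinophils (1 of 8) and ovary and oviduct (1 of 5) were mostly below the filter. The ovary gene that was measured, Inha, lay between 6.16 and 6.40 in pregnant and between 6.22 and 7.62 in pseudopregnant uteri. The part of these cell types in the results below was not tested. Along the first axis of variation, pregnant replicate 2 (-26.7) and pseudopregnant replicate 1 (20.3) lay apart from the other arrays of their groups, which ran from -6.63 to -4.90 and from 6.76 to 9.32.

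Because Kcne4 was the family member past the threshold, the bases before its gene start are shown with those of its Kcne relatives. Each is the 250 bases before a RefSeq gene start in GRCm38.p6, read 5′ to 3′ on the strand of the gene. Kcne3 and Kcne2 each have 2 starts listed, and the one farther upstream is shown. Kcne1 belongs to the family as well.
Kcne4 (chr1:78816661-78816910, plus strand): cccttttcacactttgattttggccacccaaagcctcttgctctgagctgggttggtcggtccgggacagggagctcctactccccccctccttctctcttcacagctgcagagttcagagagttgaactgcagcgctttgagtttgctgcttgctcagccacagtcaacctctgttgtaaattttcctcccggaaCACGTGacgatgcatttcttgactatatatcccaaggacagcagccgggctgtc
Kcne3 (chr7:100176420-100176669, plus strand): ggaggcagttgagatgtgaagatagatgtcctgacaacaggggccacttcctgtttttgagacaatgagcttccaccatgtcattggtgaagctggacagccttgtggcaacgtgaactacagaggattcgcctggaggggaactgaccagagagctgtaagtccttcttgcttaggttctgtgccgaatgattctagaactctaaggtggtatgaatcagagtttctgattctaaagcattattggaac
Kcne2 (chr16:92292139-92292388, plus strand): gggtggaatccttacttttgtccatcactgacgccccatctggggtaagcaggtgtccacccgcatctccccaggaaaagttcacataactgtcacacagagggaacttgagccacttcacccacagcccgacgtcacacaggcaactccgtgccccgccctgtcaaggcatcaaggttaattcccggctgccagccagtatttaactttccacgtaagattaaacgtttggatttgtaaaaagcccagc
Kcne1l (chrX:142306199-142306448, minus strand): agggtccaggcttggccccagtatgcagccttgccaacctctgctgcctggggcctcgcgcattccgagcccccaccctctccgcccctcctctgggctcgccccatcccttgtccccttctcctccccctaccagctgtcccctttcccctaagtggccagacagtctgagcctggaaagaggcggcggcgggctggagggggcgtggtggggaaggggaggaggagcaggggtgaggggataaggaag
Capitals mark the only match found in these windows, an E-box, CACGTG, which begins 54 bases before the start of Kcne4. The search covered both strands for CACGTG, the progesterone receptor half-site AGAACA, the retinoid receptor half-site AGGTCA, the TATA motif TATAAA and the CArG box of smooth muscle genes. Of 32851 windows of the same length before gene starts, 6.02% held the E-box, 16.1% the progesterone half-site, 14.0% the retinoid half-site, 12.4% the TATA motif and 1.47% the CArG box. A match is a run of letters and not evidence of binding.

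Kcne4 encodes a single-span accessory subunit that reduces the current of KCNQ1 and several other voltage-gated channels in expression systems. Its log2 intensities were 6.91, 6.80, 6.70 and 7.03 in pregnant uteri, against 7.28, 7.26, 7.51 and 7.32 in pseudopregnant uteri. All 4 pregnant values lay below all 4 pseudopregnant values. The means were 6.86 ± 0.14 in pregnant and 7.34 ± 0.12 in pseudopregnant uteri (SD, n = 4 each). The difference was -0.48 ± 0.083 (SE; 95% interval -0.67 to -0.30; limma adjusted p = 0.0282), a level 1.40-fold lower in pregnant uterus. Its relatives Kcne1, Kcne1l, Kcne2 and Kcne3 lay below the intensity filter and were not tested with the measured genes. The call ended without pregnant replicates 1 (adjusted p = 0.0607), 2 (0.0571) or 3 (0.0502), without pseudopregnant replicates 1 (0.0725), 2 (0.0548) or 3 (0.0645), and without the intensity filter (0.0583). The size stayed between -0.54 and -0.43 whichever array was left out.

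**Figure D1:**
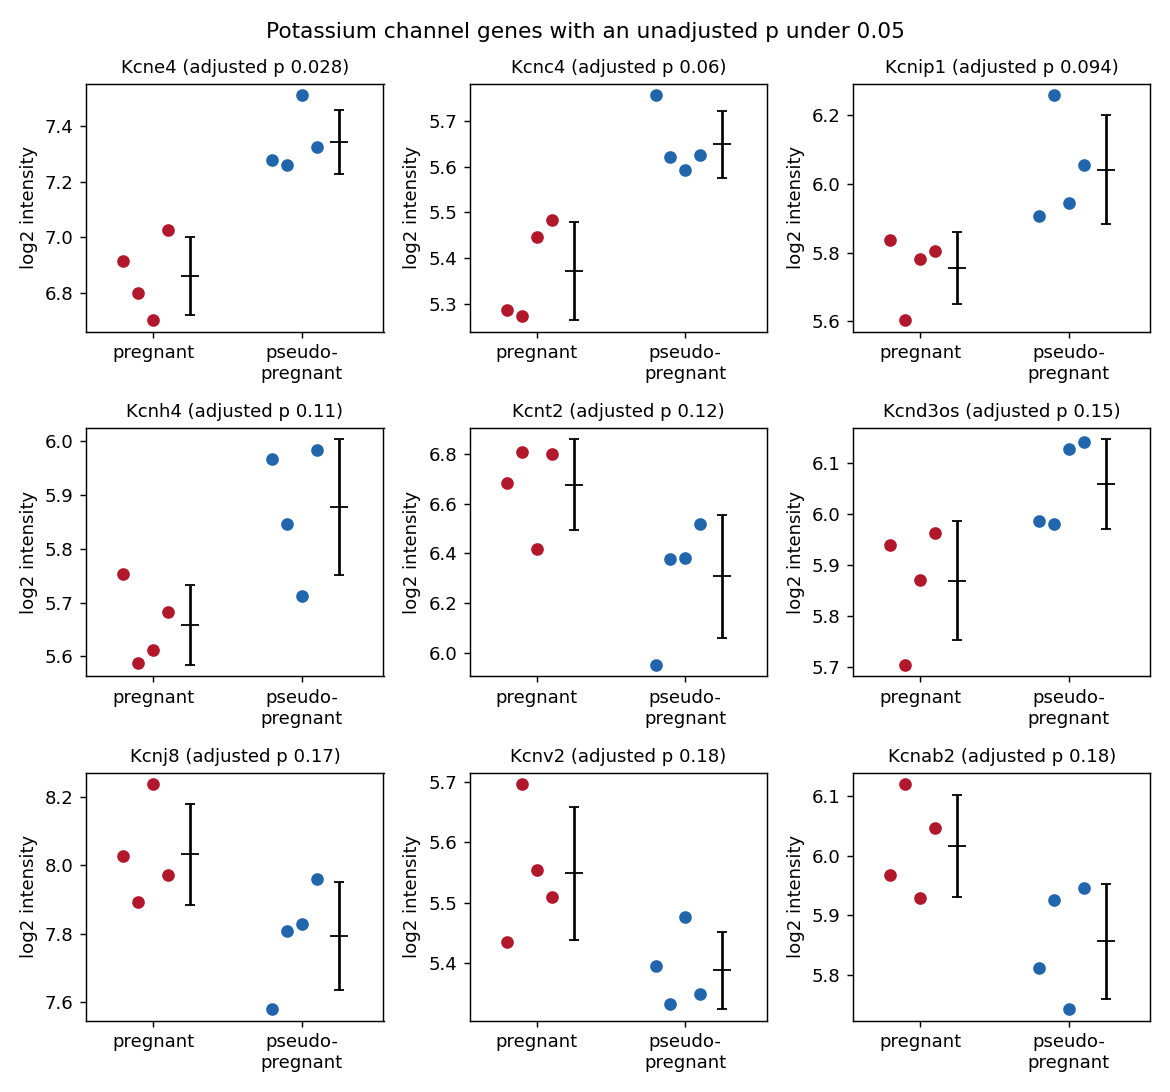
Log2 intensity (vertical axis, a separate scale in each panel) of the 9 potassium channel genes with an unadjusted p under 0.05, with 1 point per array, pregnant left and pseudopregnant right, and the mean ± SD of 4 arrays as a bar. The groups do not overlap for Kcne4, Kcnc4, Kcnip1 and Kcnd3os, all lower in pregnant uterus, and overlap in the other 5 panels.

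**Figure D2:**
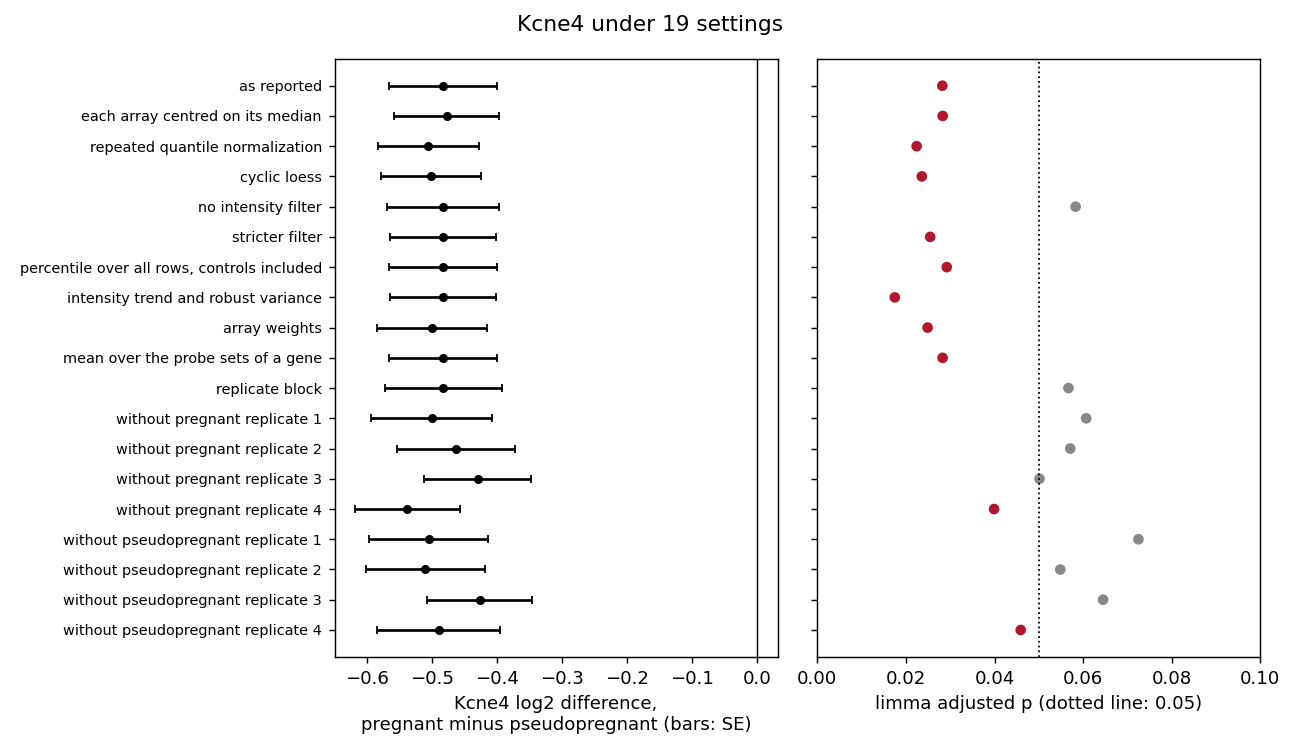
The log2 difference of Kcne4 with its SE (left, horizontal axis) and its limma adjusted p (right, horizontal axis, dotted line at 0.05) as reported and under 18 other settings, 1 per line. All differences lie between -0.54 and -0.43, while 10 of the 18 other settings keep the adjusted p under 0.05.

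Of the accessory subunits of voltage-gated channels, 5 of 12 were measured, and none of the other 4 passed the threshold. Kcnip1, a calcium-binding partner of Kv4 pore subunits, had log2 intensities of 5.84, 5.60, 5.78 and 5.81 in pregnant uteri and 5.91, 6.26, 5.95 and 6.06 in pseudopregnant uteri. The groups did not overlap, but the difference of -0.29 ± 0.085 (SE) had an adjusted p of 0.0943 in limma. Kcnab2, a cytoplasmic beta subunit with an oxidoreductase fold, differed in the other direction. Its values were 5.97, 6.12, 5.93 and 6.05 in pregnant uteri and 5.81, 5.93, 5.74 and 5.95 in pseudopregnant uteri, which overlap, with a difference of 0.16 ± 0.066 (SE, limma adjusted p = 0.182). Kcnip3, a calcium-binding protein of the Kcnip family also known as a transcriptional repressor, differed by 0.23 (95% interval -0.042 to 0.50), and Kcnab1, a further beta subunit, by -0.081 (-0.33 to 0.17).

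Among the pore subunits of the Kv1 to Kv4 families, 9 of 15 were measured and 0 passed the threshold (limma; 1 at an unadjusted p under 0.05). That gene was Kcnc4, which encodes a fast inactivating Kv3 channel. Its log2 intensities were 5.29, 5.27, 5.45 and 5.48 in pregnant uteri and 5.76, 5.62, 5.59 and 5.62 in pseudopregnant uteri. The groups did not overlap, and the difference of -0.28 ± 0.066 (SE) stopped short of the threshold (limma adjusted p = 0.0597). These values lie close to the 40th percentile of the arrays, 5.23 to 5.32, where the size of a difference is not exact. Of all probe sets with a mean log2 intensity under 6, 63.1% had a difference below 0. Kcnd2, a Kv4 subunit of fast transient current, averaged 7.24 ± 0.22 in pregnant and 7.47 ± 0.15 in pseudopregnant uteri (SD, n = 4 each), a difference of -0.23 (-0.12 without pregnant replicate 2) with a limma adjusted p of 0.251. Kcnd3, another Kv4 subunit, differed by 0.043 (95% interval -0.16 to 0.25). The transcript Kcnd3os, from the opposite strand at the Kcnd3 locus, had 5.94, 5.70, 5.87 and 5.96 in pregnant uteri and 5.99, 5.98, 6.13 and 6.14 in pseudopregnant uteri. Its groups did not overlap, and its difference was -0.19 ± 0.071 (SE, limma adjusted p = 0.150). Kcna3, the Kv1 channel known from lymphocytes and macrophages, differed by -0.033 (95% interval -0.16 to 0.098). Kcna2, a Kv1 subunit best known from neurons, was 5.48 to 5.57 in pregnant and 5.58 to 5.67 in pseudopregnant uteri, without overlap but with a difference of only -0.094 (limma adjusted p = 0.264).

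The KCNQ and ether-a-go-go channels, which pass slowly closing or repolarising currents, had 6 of 10 members measured, and 0 passed (limma; 1 at an unadjusted p under 0.05). All 6 differences were below 0, with a median of -0.11, although that of Kcnq1 turned above 0 under 4 of 18 other settings. The 6 genes had mean log2 intensities under 7. Of all probe sets, 63.1% with a mean under 6 and 51.3% with a mean between 6 and 7 were below 0. Kcnh4, of the ether-a-go-go-like branch, had 5.75, 5.59, 5.61 and 5.68 in pregnant uteri and 5.97, 5.85, 5.71 and 5.98 in pseudopregnant uteri. Its groups overlapped at pseudopregnant replicate 3, and the difference was -0.22 ± 0.071 (SE, limma adjusted p = 0.113). Kcnq1, a pore subunit on which Kcne4 acts in expression systems, averaged 6.10 ± 0.13 in pregnant and 6.12 ± 0.081 in pseudopregnant uteri (SD, n = 4 each), with a 95% interval of -0.18 to 0.15 for the difference. Kcnq5, a KCNQ subunit of smooth muscle and brain, differed by -0.12 (-0.35 to 0.11), and Kcnh2, the ERG channel that repolarises heart and myometrium, by -0.13 (-0.31 to 0.046). Kcnh3, a brain-enriched relative of Kcnh4, differed by -0.10 (limma adjusted p = 0.314).

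The silent subunits form no channels alone and alter other voltage-gated channels when they join them. Of 10, 6 were measured and 0 passed (limma; 1 at an unadjusted p under 0.05). That gene, Kcnv2, known from photoreceptors, had 5.43, 5.70, 5.55 and 5.51 in pregnant uteri and 5.39, 5.33, 5.48 and 5.35 in pseudopregnant uteri. The groups overlapped, and the difference of 0.16 ± 0.066 (SE) had a limma adjusted p of 0.178. Differences of the other 5 were below 0, among them Kcng3 with -0.20 (limma adjusted p = 0.281) and Kcns3 with -0.13 (0.303).

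Channels activated by calcium or sodium had 5 of 8 members measured, and 0 passed (limma; 1 at an unadjusted p under 0.05). Kcnt2, a sodium-activated channel, had the largest positive difference of the 43 genes. Its log2 intensities were 6.68, 6.81, 6.42 and 6.80 in pregnant uteri and 5.95, 6.38, 6.38 and 6.52 in pseudopregnant uteri. The low value of pseudopregnant replicate 1 stood out, pregnant replicate 3 overlapped with the pseudopregnant group, and the difference was 0.37 ± 0.13 (SE, limma adjusted p = 0.123). Without pseudopregnant replicate 1 the difference of Kcnt2 was 0.25. Kcnma1, the pore of the large-conductance BK channel of the myometrium, had 6.87, 7.23, 7.07 and 7.16 in pregnant uteri and 6.78, 6.90, 7.17 and 7.35 in pseudopregnant uteri. The Kcnma1 groups overlapped over most of their range, with a 95% interval of -0.24 to 0.31 for the difference. The BK accessory subunits that were measured, Kcnmb1 of smooth muscle and Kcnmb3, differed by -0.10 (-0.29 to 0.085) and -0.059 (-0.21 to 0.096). Kcnn3, a small-conductance channel whose overexpression disturbs delivery in mice, had 8.20, 7.87, 8.20 and 8.44 in pregnant uteri and 8.35, 8.55, 8.27 and 8.46 in pseudopregnant uteri. Pregnant replicate 2 was the lowest of these values, and the difference of -0.23 (-0.13 without it) had a limma adjusted p of 0.235. Kcnn4, the intermediate-conductance channel of epithelia and leukocytes, differed by 0.15 (95% interval -0.022 to 0.31).

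Of the inward rectifiers, 2 of 15 were measured, both pores of ATP-sensitive channels. Kcnj8, the pore of the vascular and smooth muscle form, had log2 intensities of 8.03, 7.89, 8.24 and 7.97 in pregnant uteri and 7.58, 7.81, 7.83 and 7.96 in pseudopregnant uteri. The groups overlapped through pseudopregnant replicate 4, and the difference was 0.24 ± 0.094 (SE, limma adjusted p = 0.167). Its regulatory partner Abcc9 differed by -0.055 (limma adjusted p = 0.640). Kcnj11, the pore form known from pancreatic beta cells and heart, differed by -0.022 (95% interval -0.19 to 0.14). Kcnj13, an inward rectifier described in uterine muscle, lay below the filter, with 5.11 ± 0.041 in pregnant and 5.15 ± 0.15 in pseudopregnant uteri (SD, n = 4 each).

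The tandem-pore-domain channels carry background current at rest, and 7 of 14 were measured. Of these 7, 0 passed (limma, and 0 at an unadjusted p under 0.05), and all 7 differences were smaller than 0.2 in size. Kcnk12, a member with little current of its own, had the smallest p, with a difference of -0.18 (limma adjusted p = 0.215), followed by Kcnk5 and by Kcnk4, a stretch- and lipid-sensitive channel, with -0.096 (0.528). Kcnk3, an acid-sensitive channel, averaged 6.60 ± 0.16 in pregnant and 6.60 ± 0.096 in pseudopregnant uteri (SD, n = 4 each), with a 95% interval of -0.19 to 0.18. Kcnk5, which alkaline conditions open, differed by 0.10 (-0.047 to 0.25), Kcnk1, the founding member of the family, by 0.0097 (-0.15 to 0.17) and its close relative Kcnk6 by 0.0017 (-0.12 to 0.12). Kcnk2, a stretch-sensitive channel of uterine muscle, lay below that percentile on 7 of 8 arrays.

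**Figure D3:**
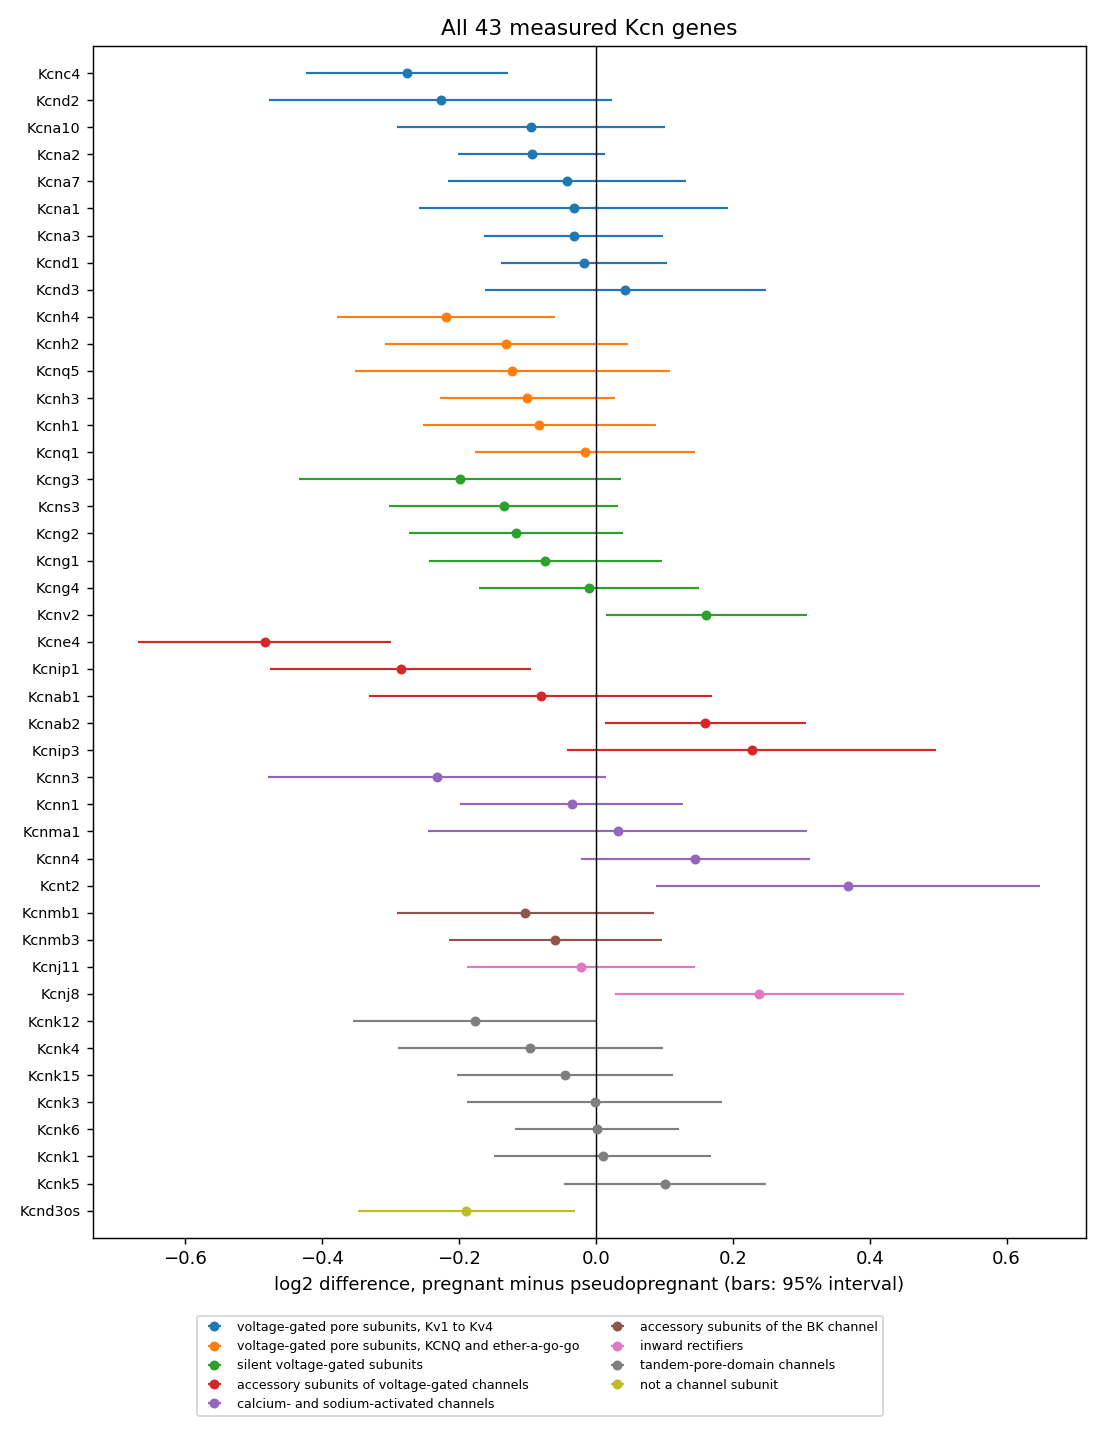
Log2 difference, pregnant minus pseudopregnant (horizontal axis), with its 95% interval for each of the 43 measured genes (vertical axis), coloured by class. Kcne4 has the lowest difference (-0.48) and Kcnt2 the highest (0.37), and 32 of the 43 points lie below 0.

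Across the 43 genes, 32 differences were below 0 and 11 above 0, with a median of -0.059, against 49.4% below 0 and a median of 0.0019 over all 17491 probe sets. Of the 43, 34 lay within 0.2 of 0, which is 79.1% of the family against 82.1% of all probe sets. Of the 42 genes that did not pass, 41 had a 95% interval inside a 1.5-fold change either way, and the exception was Kcnt2, whose interval reached 0.65. These intervals are of array intensity, in which RMA compresses changes near background, and 19 of the 43 genes had a mean log2 intensity under 6. The matching share over all probe sets was not counted. Of the 49 family genes below the intensity filter, 0 passed when limma was fitted without that filter (smallest adjusted p = 0.192), against 0.187% of all 28939 probe sets. At an unadjusted p under 0.05 there were 0 higher, against 9.3% of all, and 6 lower, against 8.66% of all. These shares include the 17491 probe sets that passed the filter, so they are not shares for probe sets as dim as these 49 genes. Among the 43 measured genes, groups did not overlap for 5, all lower in pregnant uterus, which is 11.6% of the family. Of all 17491 kept probe sets, 2556 (14.6%) did not overlap, 942 of them lower and 1614 higher. The direction varied with brightness over the whole array, a property of probe sets that does not rank one gene's level against another's. Of 19 genes with a mean log2 intensity under 6, 16 were below 0, where 63.1% of all probe sets of that brightness were. Between 6 and 7 it was 11 of 13 genes, where 51.3% of all probe sets were below 0, and over 7 it was 5 of 11, where 41.2% were. The number of genes below 0 was 27 of 42 without pregnant replicate 2 and 29 of 43 with cyclic loess. Pregnant replicate 2 was the lowest array of its group for 19 of the 43 genes, against 32.8% of all probe sets. Pseudopregnant replicate 2 was the lowest of its group for 15 of the 43, against 20.8% of all probe sets, and without it 34 of the 43 differences were below 0.

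**Figure D4:**
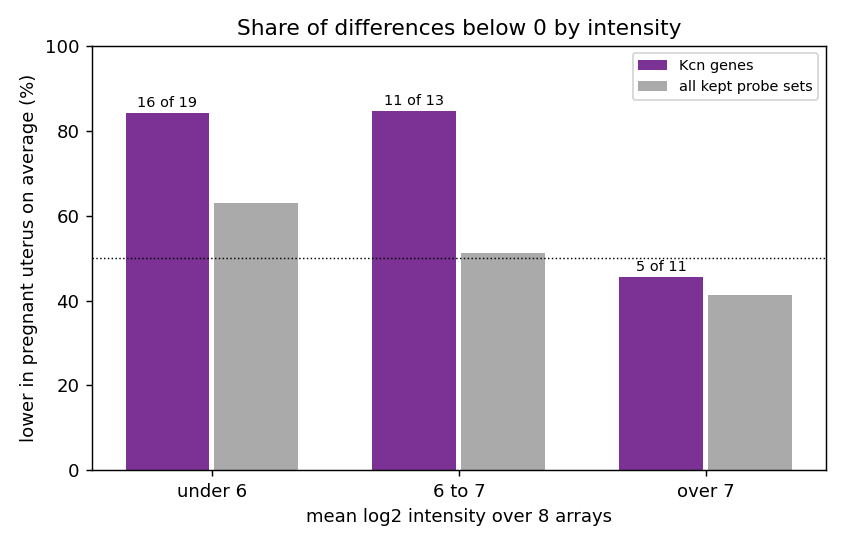
Share of differences below 0 (vertical axis, percent), that is lower in pregnant uterus on average, for the potassium channel genes (purple, counts above the bars) and all kept probe sets (grey), in 3 bands of mean log2 intensity (horizontal axis). The share falls with brightness over all probe sets, at 63.1%, 51.3% and 41.2%, and the potassium channel genes hold 16 of 19, 11 of 13 and 5 of 11.

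The machinery around the channels was followed in a list of 30 genes without the Kcn prefix, of which 25 were on the array and 19 measured. In this list 1 gene fell and 0 rose (limma). At an unadjusted p under 0.05, 5 of the 19 were lower and 3 higher, against 9.43% and 14.3% of all probe sets. Groups did not overlap for 7 of the 19, 4 lower and 3 higher. Over all 17491 kept probe sets, 14.6% did not overlap, 942 of them lower and 1614 higher. Both counts of lower partner genes include Lrrc26, which passed the intensity filter through the pseudopregnant group, where it was higher. The list's median difference was -0.055. Pln, phospholamban, the brake on the calcium pump of the sarcoplasmic reticulum, fell by 0.45 on the log2 scale, with 6.07 ± 0.022 in pregnant and 6.51 ± 0.20 in pseudopregnant uteri (SD, n = 4 each; limma adjusted p = 0.0390). The Pln call ended under 9 of 18 other settings, 7 of them left-out arrays (every one except pseudopregnant replicate 1). Lrrc26, an accessory subunit that lets BK channels open at lower voltage, lay at or below the 40th percentile on 3 of 4 pregnant arrays. It did so on 0 pseudopregnant arrays, so it passed the intensity filter through that group. At this low intensity its difference was -0.24 (limma adjusted p = 0.056), without overlap of the groups. Cav1, the coat protein of caveolae, differed by 0.19 (0.070), and Slc12a7, a potassium-chloride cotransporter, by -0.28 (0.097). The L-type calcium channel pore Cacna1c differed by 0.072 (0.486).

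Pln is a gene of smooth muscle and Kcne4 has been described in vascular smooth muscle, so the 12 smooth muscle markers were set beside them. Of the 12, 2 fell and 0 rose. The 2 were Pln, which prompted this comparison, and Myocd, the coactivator of smooth muscle genes (-0.27, limma adjusted p = 0.0497). Myocd was not followed under the other settings. Lower without overlap were 5 of the 12, Pln among them, against 942 of all 17491 kept probe sets. Over all probe sets, 9.43% were lower and 14.3% higher at an unadjusted p under 0.05. Of the 12 markers, 6 were lower at that p, Pln among them, and 0 higher. The 4 that did not pass after adjustment were the myosin heavy chain Myh11 (-0.22, limma adjusted p = 0.070), the myosin light chain kinase Mylk (-0.24, 0.0994), the actin-associated Synpo2 (-0.28, 0.0994) and Lmod1, a nucleator of actin filaments (-0.21, 0.0964). The actin Acta2 differed by -0.074 (limma adjusted p = 0.361), and 4 of the 12 markers were above 0. These were desmin, Des (0.25, limma adjusted p = 0.242), Cnn1 (0.15, 0.468), Actg2 (0.12, 0.634) and Tagln (0.087, 0.619). The mean log2 level of the list lay between 9.09 and 9.20 in pregnant and between 9.12 and 9.33 in pseudopregnant uteri, so the groups overlapped. Its part in the difference of Kcne4 was not tested.

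**Figure D5:**
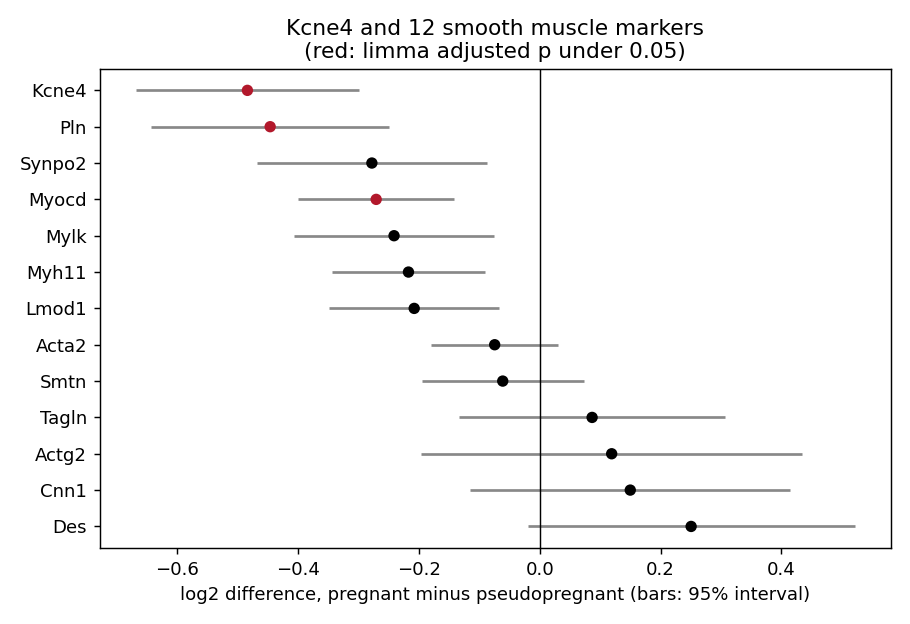
Log2 difference, pregnant minus pseudopregnant (horizontal axis), with its 95% interval for Kcne4 (top) and 12 smooth muscle markers (vertical axis), red where the limma adjusted p was under 0.05. Kcne4 (-0.48), Pln (-0.45) and Myocd (-0.27) are red, and the other markers run from -0.28 for Synpo2 to 0.25 for Des.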

How the data were processed

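The authors deposited linear intensities per probe set that they had made with RMA, which corrects background, equalizes array distributions and summarizes probes. RMA is named, with no version, per the submitters' processing notes. For its settings and annotation the sources used here give nothing. RMA compresses changes near background.

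Log2 was taken of all 35556 probe sets, and the 6617 with identifiers below the first with a listed gene were taken for controls and left out, which is inferred and not stated. The remaining 28939 included 21789 with 1 symbol, and 0 of the probe sets with several symbols named a Kcn gene. Gene numbers of all 92 members matched RefSeq. At least 4 of 8 arrays had to lie above the 40th percentile of their array, which kept 17491 probe sets. Kcna1 passed with 4 arrays above that line, and Kcnb2 and Kcnk7 failed with 2. A gene was represented by its probe set with the highest mean over 8 arrays, and 3 members (Kcna2, Kcnh8 and Kcnma1) had more than 1.

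Groups were compared with limma 3.58.1 in R 4.3.3, two-sided, with Benjamini-Hochberg adjustment over all kept probe sets. "Rose" and "fell" mean an adjusted p under 0.05. The code was first tested on simulated data. Titles call the samples biological replicates. Median intensities lay between 55.2 and 56.3, and correlations within groups between 0.984 and 0.994. Arrays number 4 in each group, which limits precision. No batch is named in the labels. Figures used matplotlib 3.10.9 and Python 3.11.15.

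Genes named are those past an adjusted or unadjusted p of 0.05, the 3 smallest p of each class, genes with an array value far from its group, and a set of channels described in uterus. Of that set, Kcne2, Kcnj13, Kcnk2 and Kcnn2 lay below the filter. Kcnk1, Kcnk6 and Kcnip3 were added after their values were seen, as were, of the partner list, Abcc9 and Cacna1c. The members and lists were chosen with earlier results of these data known. The alternatives were other normalizations, filters, variance models, array weights, averaged probe sets, the replicate number as a block and each array left out.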

Additional observations from a re-analysis of the deposited data

Results flagged for a closer look

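In 86 groups of 4 array values of the measured potassium channel genes, 3 values lay far from the rest of their group. By chance about 1 in 20 groups holds such a value, so this number is no more than chance gives. Kcns3, a silent subunit, had 6.11 in pregnant replicate 1, against 6.30 to 6.32 on the other pregnant arrays. Kcnab1, a beta subunit, had 6.30 in pregnant replicate 2, where the other 3 had 6.65 to 6.71, and its difference was 0.012 without that array. Kcna1, a Kv1 subunit, had 4.93 in pseudopregnant replicate 2, against 5.34 to 5.40 on the other pseudopregnant arrays. None of these 3 genes passed the threshold with all arrays or under any alternative run.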

How the results depend on the processing

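Over 18 alternatives, 8 of which leave out 1 array each, the number of potassium channel genes called higher was 0 throughout (limma; 4 at an unadjusted p under 0.05 with all arrays). The number called lower was 0 without the intensity filter, 0 with the replicate block and 0 to 1 with single arrays left out. The replicate block moved Kcne4 to an adjusted p of 0.0567. The labels give no shared source for equal numbers, 3 of 8 arrays correlated best with their own number, and the pair correlations ran from -0.10 to 0.24, so the numbers were not taken as pairs. Over all probe sets, 247 higher and 72 lower calls became 42 and 12 without the filter, where more probe sets are tested, 524 and 186 with an intensity trend and robust variance, and 140 and 34 with the replicate block. Lower calls numbered 109 with cyclic loess and 120 with array weights. With single arrays left out they ran from 27 to 160 higher and from 12 to 87 lower. For the channel partners, lower calls were 0 without the filter, 0 with the replicate block and 0 to 1 with single arrays left out, and 1 gene, Cav1, was called higher with trend and robust variance. Except where stated, the cause was not tested. Single genes followed under the alternatives were the 31 named measured members and Pln. Among them, signs turned only for genes with differences between -0.081 (Kcnab1) and 0.043 (Kcnd3) with all arrays. Kcnj11 was 0.0086 with quantile normalization, 0.021 with cyclic loess and 0.0058 with array weights, and -0.071 to 0.018 without single arrays. Kcnma1 was -0.049 with array weights and -0.057 to 0.13 without single arrays. Kcnk3 was 0.0035 with median centring, 0.046 with array weights and -0.039 to 0.076 without single arrays. Kcnq1 was 8.59e-04 with cyclic loess and -0.064 to 0.034 without single arrays. Kcna1 was 0.0020 with quantile normalization, 0.014 with cyclic loess and -0.14 to 0.0041 without single arrays. Without single arrays Kcnab1 ran from -0.17 to 0.012 and Kcnd3 from -0.028 to 0.10.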

Other observations

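The 49 potassium channel genes below the intensity filter included most inward rectifiers and the Kcne relatives of Kcne4. Of these, 43 were above the 40th percentile on 0 arrays and 6 on 1 or 2 of them. Kcnb2, a Kv2 pore subunit, averaged 4.91 ± 0.13 in pregnant and 5.19 ± 0.20 in pseudopregnant uteri (SD, n = 4 each), a difference of -0.28 at which intensity the size is not exact. Kcnk7, a tandem-pore-domain gene, averaged 5.15 ± 0.034 in pregnant and 5.29 ± 0.092 in pseudopregnant uteri. Both were chosen after their values were seen.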
